A study of Homo sapiens with 42 samples.

Results

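MYC, MAX and the MXD proteins form a network of transcription factors that share the dimerisation partner MAX, and the 10 genes measured here are MYC, MYCN, MYCL, MAX, MXD1, MXD3, MXD4, MXI1, MNT and MGA. They were looked up by GENCODE gene symbol in all 4 deposited tables, each with 58721 genes, and all 10 were found. The series studies a degrader of ENL and holds RNA-seq counts of 42 human leukaemia libraries, which fall into 15 groups. ENL, the product of the gene MLLT1, reads acylated histones through its YEATS domain and is needed by leukaemias that carry MLL (KMT2A) fusions.

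MYC activates genes when it pairs with MAX, while the MXD proteins, MXI1 and MNT pair with MAX to repress them, so the partners of MAX compete for the same DNA sites, the E-boxes. MYC drives ribosome production, nucleotide synthesis and amino acid uptake, and leukaemias with MLL fusions depend on its high expression. MXD genes are known for rising when cells stop dividing and mature.

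MV4;11, a myelomonocytic leukaemia line with an MLL-AF4 fusion, was treated with MS41 (the degrader), PFI-6 (an inhibitor of the YEATS domains of ENL and AF9) or MS41N (whose role the labels do not state), each at 100 nM, or with DMSO. Treatment lasted 24 h or 6 h, and every combination of compound and time gave 3 libraries. The sample titles write MS41N and the treatment protocol writes MS47N, and the name in the titles is used here. SEMK2, a B-cell precursor leukaemia line that also carries MLL-AF4, received MS41 at 100 nM or DMSO, with 3 libraries each. Which of the 2 times applied to SEMK2 is not stated. MV4;11 cells carrying ENL guide 2, ENL guide 1 or a control guide gave 2 libraries each, and the labels do not say whether the guide cells were pools or clones. MV4;11 cells taken from mice given MS41 or vehicle make up 2 further groups of 3 libraries, for which neither dose nor time is stated. The mouse libraries were made with a low-input kit and the others with the standard Illumina protocol. All libraries were made from polyadenylated RNA. The labels do not say whether replicates were separate cultures or animals, so p-values measure only the spread between these samples, which may be partly technical.

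Total counts, in units of 1000000, lay between 102 and 156 in the MV4;11 compound libraries, 156 and 231 in SEMK2, 77.2 and 87.8 in the guide libraries, and 99.5 and 127 in the mouse libraries. All 8 myeloid markers (CD33, MPO, CTSG, AZU1, LYZ, FLT3, CSF3R and SPI1) reached 1 CPM in every MV4;11 group, and 7 of 8 B-cell precursor markers did so in SEMK2. In SEMK2 4 of the 8 myeloid markers reached 1 CPM too. FLT3 was the highest of them there, at a mean of 1863 CPM with MS41 and 1966 CPM with DMSO. Of the T and NK markers, NKG7 alone reached 1 CPM in any group. Levels below are in CPM, a gene's counts per 1000000 of its library after TMM scaling, and log2 fold changes are given with their standard error (SE). A gene is called where the adjusted p from edgeR's quasi-likelihood test, over all genes of that comparison, is below 0.05. CPM values of different tables were scaled separately. In bulk RNA, fewer cells of one kind and less RNA per cell cannot be told apart.

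Of the 10 genes, 9 passed the filter on low counts in all 4 tables. MYCN, the MYC family member known from neuroblastoma (chromosome 2, 15940564 to 15947007, plus strand), was the exception. It had 0 counts in all 24 MV4;11 compound libraries, all 6 guide libraries and all 6 mouse libraries, which allows a level of up to 0.0293, 0.0389 and 0.0302 CPM in those tables. In SEMK2 it had 18 counts over 6 libraries, at most 9 in one library, and 2 libraries were at 0. MYCN was therefore not tested in any comparison.

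MYC (hg38, chromosome 8, 127735434 to 127741434, plus strand, ENSG00000136997) was lower after MS41 in MV4;11 at both times. At 24 h its levels were 230.4, 238 and 224 CPM with MS41, 398, 395 and 397 CPM with PFI-6, 434, 416 and 423 CPM with MS41N, and 451, 440.0 and 448 CPM with DMSO. At 6 h they were 184, 177 and 163 CPM with MS41, 373, 348 and 358 CPM with PFI-6, 383, 401 and 390.3 CPM with MS41N, and 406, 413 and 407 CPM with DMSO. All 6 MS41 libraries lay below all 18 other libraries, the 6 PFI-6 libraries lay below the DMSO libraries of their time, and the MS41N libraries lay below them as well. MYC fell by 0.95 on the log2 scale at 24 h (SE 0.030, 1.93-fold lower, edgeR adjusted p = 4.09e-29) and fell by 1.23 at 6 h (SE 0.030, 2.34-fold lower, adjusted p = 3.71e-32). Counted from the lowest log2 fold change, MYC was number 824 of 22711 genes at 24 h and number 189 at 6 h.

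The MYC difference between MS41 and DMSO was smaller at 24 h than at 6 h. The change from 6 to 24 h was 0.27 on the log2 scale (edgeR interaction test, adjusted p = 8.7e-07). DMSO cells themselves had more MYC at 24 h than at 6 h, by 0.13 (adjusted p = 0.000554).

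MYC was lower with PFI-6 as well. It fell by 0.17 at 24 h (SE 0.029, adjusted p = 0.000113) and fell by 0.18 at 6 h (adjusted p = 0.000293). The 24 h value was -0.11 (adjusted p = 0.129) once a trend with gene GC content was removed. With MS41N the differences were -0.07 at 24 h (interval from -0.13 to -0.01, adjusted p = 0.414) and -0.06 at 6 h (adjusted p = 0.58), and neither was called.

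**Figure D1:**
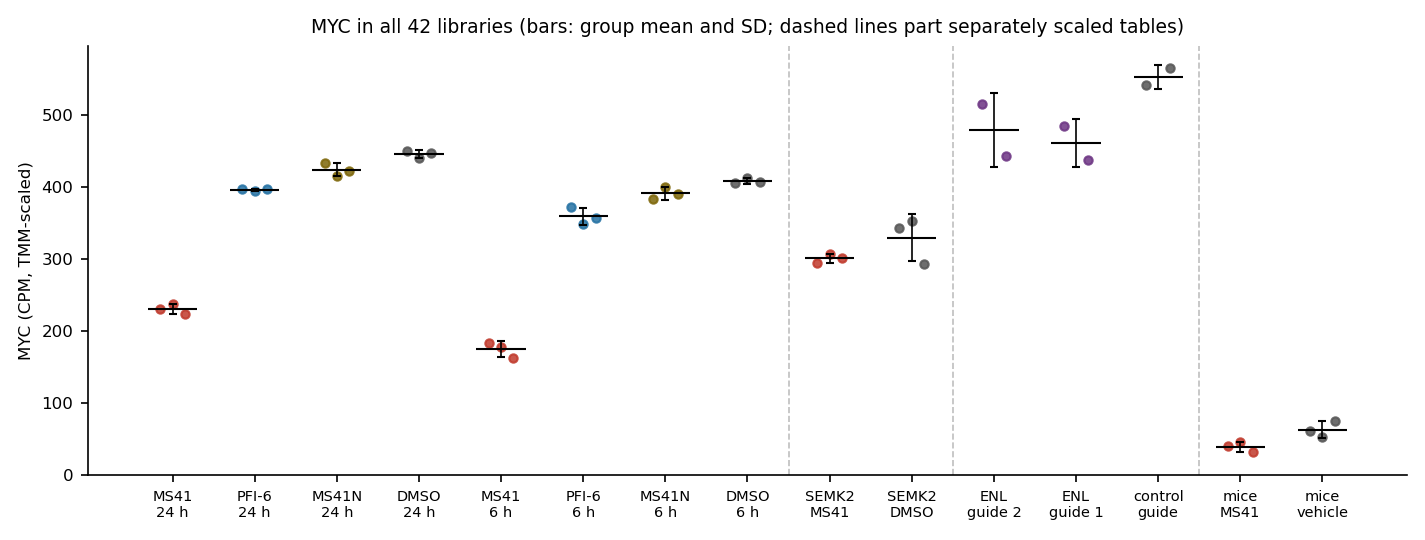
MYC level in CPM (y axis) in each of the 42 libraries, grouped by compound, cell line, guide or host (x axis), with 1 point per library and bars for the group mean and SD. The MS41 libraries of MV4;11 sit at 224 to 238 CPM at 24 h and 163 to 184 CPM at 6 h, against 440.0 to 451 and 406 to 413 CPM with DMSO, and the mouse libraries lie lowest, between 32.0 and 75.2 CPM.

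The compounds were also compared with each other at the same dose and time, as 3 pairs per time, with p-values adjusted over genes within a pair and not over the pairs. MYC was lower with MS41 than with MS41N, by -0.88 at 24 h (adjusted p = 8.9e-28) and -1.16 at 6 h (adjusted p = 2.6e-31). It was lower with MS41 than with PFI-6, by -0.78 at 24 h (adjusted p = 7.38e-26) and -1.04 at 6 h (adjusted p = 2.33e-29). PFI-6 and MS41N differed by -0.10 at 24 h (interval from -0.16 to -0.04, adjusted p = 0.16) and by -0.12 at 6 h (interval from -0.18 to -0.06, adjusted p = 0.203). Neither of these passed the threshold over all genes, and the intervals do not show that PFI-6 and MS41N act alike.

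MLLT1, the gene targeted by the guides and the source of ENL, was checked before the guide comparison. It had 123 and 127 CPM with ENL guide 2, 181 and 190.1 CPM with ENL guide 1, and 223 and 249.8 CPM with the control guide. Both ENL guides lay below the control, guide 2 by more, with log2 fold changes of -0.92 (adjusted p = 1.8e-05) and -0.35 (adjusted p = 0.0122). Among the compounds, MLLT1 RNA was lower than with DMSO by -0.25 with MS41 (adjusted p = 2.5e-09), -0.16 with PFI-6 (adjusted p = 0.000384) and -0.098 with MS41N (adjusted p = 0.257, not called) at 24 h. At 6 h the differences were -0.16 with MS41 (adjusted p = 6.5e-05), -0.095 with PFI-6 (adjusted p = 0.101, not called) and -0.0041 with MS41N (adjusted p = 0.99, not called).

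MYC had 516 and 443 CPM with ENL guide 2, 485 and 438 CPM with ENL guide 1, and 542 and 565 CPM with the control guide. Each of the 4 ENL guide libraries lay below both control libraries, and the 2 ENL guides overlapped each other. The log2 fold change of both ENL guides against the control was -0.23 (SE 0.075, interval from -0.40 to -0.07, edgeR adjusted p = 0.0689), which was not called. It was called without the filter on low counts (adjusted p = 0.00489), with DESeq2 (adjusted p = 0.039), with a replicate block (adjusted p = 0.0148) and after removal of the GC trend (-0.30, adjusted p = 0.0423). Guide 2 alone gave -0.21 (adjusted p = 0.217), and guide 1 alone gave -0.26 (adjusted p = 0.0953, or 0.0234 with a replicate block).

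In SEMK2, MYC had 295, 307 and 302 CPM with MS41 and 344, 353 and 293 CPM with DMSO. DMSO replicate 3 lay below all 3 MS41 libraries, and the other DMSO libraries lay above them. The log2 fold change was -0.13 (SE 0.059, interval from -0.26 to -0.00, edgeR adjusted p = 0.385) and was not called. Without DMSO replicate 3 it was -0.21 (adjusted p = 4.16e-05). That library was the deepest of the table, with 231 in units of 1000000 counts, and had 3.13% of its counts on mitochondrial genes, against 2.37% and 2.21% in the other DMSO libraries and 2.98% to 3.23% in the MS41 libraries. The part of these differences in the result was not tested.

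In cells from mice, MYC had 40.2, 45.7 and 32.0 CPM with MS41 and 61.6, 52.9 and 75.2 CPM with vehicle. The 3 MS41 libraries lay below the 3 vehicle libraries. Same-numbered pairs have nearly equal means in the deposited values, so the groups separate whenever all 3 pairs share a sign. Their separation therefore adds nothing to the signs. The deposited mouse values tie the libraries by replicate number, so the fit has a replicate term and 2 residual degrees of freedom. The log2 fold change was -0.69 (SE 0.15, interval from -1.03 to -0.34), with an edgeR adjusted p of 0.38, or 0.083 without the replicate term, so MYC was not called. By replicate number, the log2 ratios of MS41 to vehicle were -0.61, -0.21 and -1.23. MYC was number 768 of 21337 genes from the lowest log2 fold change.

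Ordered by mean level, MYC was lowest in the mouse groups, at 39.3 CPM with MS41 and 63.2 CPM with vehicle. MV4;11 with MS41 followed, at 175 CPM at 6 h and 231 CPM at 24 h, and then SEMK2, at 301 CPM with MS41 and 329.9 CPM with DMSO. PFI-6 at 6 h (359.6 CPM), MS41N at 6 h (391 CPM), PFI-6 at 24 h (396 CPM), DMSO at 6 h (409 CPM) and MS41N at 24 h (424 CPM) came next. MYC was highest with DMSO at 24 h (446 CPM), ENL guide 1 (462 CPM), ENL guide 2 (479.6 CPM) and the control guide (553 CPM). Neighbours whose libraries overlapped were the 2 SEMK2 groups, SEMK2 with DMSO and PFI-6 at 6 h, MS41N at 6 h and PFI-6 at 24 h, DMSO at 24 h and guide 1, and the 2 ENL guides. An order across tables rests on separate scaling, and the mouse libraries also came from another library kit.

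Of the 9 tested members, 6 were called for MS41 at 24 h, where 44.3% of all genes were called, and 6 were called at 6 h, where 26% of all genes were called. DESeq2 called 6 at 24 h and 8 at 6 h, where it added MYCL and MXD4. Of all genes 21.4% were higher and 22.9% lower at 24 h, and 12.2% higher and 13.8% lower at 6 h. At 24 h the higher members were MYCL, MXD1, MXD3 and MXD4, and the lower ones MYC and MNT. At 6 h the higher members were MXD1 and MXD3, and the lower ones MYC, MAX, MXI1 and MNT. The difference between MS41 and DMSO changed between the times for 7 of the 9 (26.4% of all genes), all 7 upward (11.9% of all genes). Of all called genes 48.4% were higher at 24 h and 46.9% at 6 h, or 32.9% and 24.8% after removal of the GC trend.

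MYCL (chromosome 1, 39895426 to 39902256, minus strand), a MYC family member first found in lung cancer, was present at low levels. At 24 h it had 4.91, 5.45 and 6.19 CPM with MS41, 2.87, 2.44 and 3.10 CPM with PFI-6, 2.38, 2.69 and 2.57 CPM with MS41N, and 3.10, 2.19 and 2.58 CPM with DMSO. The MS41 libraries lay above all others of that time. MYCL rose by 1.07 on the log2 scale (SE 0.13, interval from 0.80 to 1.34, 2.1-fold, edgeR adjusted p = 3.09e-09).

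At 6 h MYCL had 1.78, 1.21 and 1.68 CPM with MS41 and 1.07, 1.18 and 1.36 CPM with DMSO, and the groups overlapped. The log2 fold change was 0.38 (SE 0.15, adjusted p = 0.0552), which DESeq2 called (adjusted p = 0.0483). The change from 6 to 24 h was 0.69 (adjusted p = 0.00639). In DMSO alone MYCL was 2.18-fold higher at 24 h than at 6 h (log2 1.13, adjusted p = 1.62e-08). Per kilobase of exon, MYC still had 76.9 ± 2.26 CPM with MS41 at 24 h, against 1.11 ± 0.131 CPM for MYCL (SD, n = 3).

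In SEMK2, MYCL lay the other way, at 2.86, 2.99 and 3.10 CPM with MS41 and 3.87, 3.63 and 3.32 CPM with DMSO. These groups did not overlap, but the log2 fold change of -0.27 was not called (adjusted p = 0.309). In the guide and mouse libraries MYCL lay between 2.54 and 4.63 CPM and was not called.

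MAX (chromosome 14, 65006174 to 65102695, minus strand), the partner of all the others, moved little. At 24 h it had 94.1, 97.0 and 88.4 CPM with MS41 and 90.3, 89.3 and 87.1 CPM with DMSO, and the groups overlapped (log2 fold change 0.07, adjusted p = 0.0901). At 6 h it had 84.2, 80.7 and 77.6 CPM with MS41 and 95.2, 94.6 and 91.1 CPM with DMSO. The 6 h groups did not overlap, and MAX fell by 0.21 (SE 0.032, edgeR adjusted p = 9.35e-07). The change between the times was 0.28 (adjusted p = 3.21e-06).

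MAX was also lower with PFI-6 at 6 h, at 83.2, 84.9 and 86.4 CPM, by -0.14 against DMSO (adjusted p = 0.0121). This call was lost without DMSO replicate 1, DMSO replicate 2 or PFI-6 replicate 1. The MS41N libraries at 6 h lay below all DMSO libraries as well, at 87.0, 85.9 and 87.4 CPM. For MS41N the edgeR unadjusted p was under 0.05, but MAX was not called. MAX was not called for PFI-6 against MS41N either. Levels of MAX were 102 to 117 CPM in SEMK2, 78.8 to 85.7 CPM with the guides and 62.3 to 66.9 CPM in the mouse libraries, with no call in those tables.

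MXD1 (chromosome 2, 69897688 to 69942945, plus strand), a MAX partner that recruits the SIN3 co-repressor and rises in maturing myeloid cells, was higher after MS41. At 24 h it had 32.1, 30.3 and 32.6 CPM with MS41, 23.8, 24.5 and 23.5 CPM with PFI-6, 23.2, 22.2 and 23.7 CPM with MS41N, and 23.1, 22.4 and 22.2 CPM with DMSO. The MS41 libraries stood apart from the others. MXD1 rose by 0.49 (SE 0.046, 1.40-fold, edgeR adjusted p = 1.21e-12).

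At 6 h MXD1 had 25.6, 27.6 and 24.9 CPM with MS41 and 22.5, 23.5 and 24.6 CPM with DMSO, and the groups did not overlap. The log2 fold change was 0.15 (adjusted p = 0.0134), but it was 0.11 without DMSO replicate 1 (adjusted p = 0.129), 0.10 without MS41 replicate 2 (adjusted p = 0.161) and 0.07 after removal of the GC trend (adjusted p = 0.341). The change between the times was 0.34 (adjusted p = 3.84e-05). MS41 replicate 2 at 6 h had 7.09% of its counts on mitochondrial genes, against 5.56% and 5.68% in the other MS41 libraries and 5.49% to 5.63% in DMSO. Summed over the 8 myeloid markers, the level was 3417 to 3603 CPM with MS41 and 2478 to 2514 CPM with DMSO at 24 h, and 1212 to 1228 CPM with MS41 and 1452 to 1466 CPM with DMSO at 6 h. LYZ was the most abundant of them in these groups, at a mean of 2642 CPM with MS41 and 1464 CPM with DMSO at 24 h. Without LYZ, the other markers together were lower with MS41 at 24 h. The part of these differences in the MXD1 result was not tested.

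MXD1 was low in SEMK2, at 12.2, 11.1 and 11.5 CPM with MS41 and 10.6, 9.57 and 10.7 CPM with DMSO (log2 fold change 0.17, adjusted p = 0.352). The mouse libraries held much more of it, 99.0, 88.6 and 92.6 CPM with MS41 and 82.2, 91.6 and 88.2 CPM with vehicle. Those 2 groups overlapped (log2 fold change 0.10, adjusted p = 0.77). Summed over the 8 myeloid markers, the mouse libraries reached 7880 to 9136 CPM with MS41 and 8306 to 9594 CPM with vehicle. Most of this was LYZ, at a mean of 6894.5 CPM with MS41 and 7329 CPM with vehicle.

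MXD3 (chromosome 5, 177301461 to 177312757, minus strand), an MXD protein known from cells in S phase, had 4.86, 4.85 and 5.29 CPM with MS41 and 3.08, 3.61 and 3.84 CPM with DMSO at 24 h. The groups did not overlap, and MXD3 rose by 0.51 (SE 0.11, 1.42-fold, edgeR adjusted p = 0.000208). At 6 h it had 4.18, 5.39 and 4.27 CPM with MS41 and 4.17, 3.64 and 3.30 CPM with DMSO. The groups nearly met at 4.18 CPM with MS41 and 4.17 CPM with DMSO, with MS41 replicate 2 the highest, and the log2 fold change was 0.31 (adjusted p = 0.0359), a call lost without DMSO replicate 2, DMSO replicate 3 or MS41 replicate 2. The change between the times was 0.20 (adjusted p = 0.447). Of the exon bases of MXD3, 22.2% lie opposite exons of PRELID1, which fell by 0.33 at 24 h (adjusted p = 4.0e-09). Whether reads were counted by strand is not stated, so reads from the shared bases may belong to either gene.

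MXD3 at 24 h was 2.43, 3.14 and 2.85 CPM with PFI-6, lower than with MS41 in every library, and MS41 exceeded PFI-6 by 0.83 (adjusted p = 4.77e-08). The difference between PFI-6 and DMSO was -0.32 (adjusted p = 0.0651). With the guides MXD3 had 16.4 and 16.9 CPM (guide 2), 19.1 and 15.5 CPM (guide 1), and 14.3 and 14.5 CPM (control). The control libraries were lowest, but the log2 fold change of 0.23 was not called (adjusted p = 0.143).

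MXD4 (chromosome 4, 2247432 to 2262294, minus strand), another SIN3-recruiting partner of MAX, had 18.0, 19.8 and 19.3 CPM with MS41 and 15.7, 17.7 and 17.9 CPM with DMSO at 24 h, and the groups did not overlap. The log2 fold change was 0.15 (adjusted p = 0.0405), a call lost without DMSO replicate 1, MS41 replicate 2 or MS41 replicate 3. At 6 h it had 16.6, 15.8 and 15.7 CPM with MS41 and 18.6, 17.5 and 17.6 CPM with DMSO, a log2 fold change of -0.16 (adjusted p = 0.0518). The 6 h groups did not overlap either, with MS41 below DMSO, and after removal of the GC trend the value for MXD4 was -0.20 and called (adjusted p = 0.00387). The change between the times was 0.32 (adjusted p = 0.00497). In the guide cells MXD4 had 53.1 and 53.7 CPM with guide 2, 54.5 and 55.6 CPM with guide 1, and 49.1 and 49.7 CPM with the control guide. The 3 guides did not overlap, but the log2 fold change of 0.13 for both ENL guides was not called (adjusted p = 0.175).

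MXI1 (chromosome 10, 110207605 to 110287365, plus strand), also called MXD2, had 68.1, 69.2 and 66.7 CPM with MS41 and 75.6, 78.2 and 77.7 CPM with DMSO at 6 h. The groups did not overlap, and MXI1 fell by 0.18 (adjusted p = 1.99e-05). At 24 h it had 73.3, 76.2 and 68.6 CPM with MS41 and 71.0, 72.1 and 67.4 CPM with DMSO, in overlapping groups, with a log2 fold change of 0.05 (adjusted p = 0.219) that was -0.091 after removal of the GC trend. The change between the times was 0.23 (adjusted p = 8.6e-05), while in DMSO alone MXI1 was lower at 24 h than at 6 h by -0.14 (adjusted p = 0.000805). In SEMK2 MXI1 lay between 11.5 and 13.1 CPM.

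MNT (chromosome 17, 2384060 to 2401118, minus strand), a widely expressed repressor that binds MAX, had 17.0, 18.0 and 17.6 CPM with MS41 and 22.9, 23.2 and 24.5 CPM with DMSO at 6 h. The groups did not overlap, and MNT fell by 0.43 (SE 0.055, edgeR adjusted p = 3.02e-08), the second largest fall among the members at that time. At 24 h it had 19.5, 17.5 and 19.1 CPM with MS41 and 20.1, 19.98 and 21.4 CPM with DMSO, a log2 fold change of -0.13 (adjusted p = 0.0447). That call was lost without DMSO replicate 1 or 3 or MS41 replicate 2 or 3. The other compounds lay below all DMSO libraries at 24 h as well, at 17.2 to 19.1 CPM with PFI-6 and 18.3 to 19.2 CPM with MS41N. Neither was called against DMSO, and MNT was not called for MS41 against PFI-6 or MS41N at 24 h. The change between the times was 0.29 (adjusted p = 0.00323). Of its exon bases, 21.3% lie opposite AC006435.1, which was too low to be tested.

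MGA (chromosome 15, 41621224 to 41773081, plus strand), a large MAX partner that works in the repressive complex PRC1.6, was not called against DMSO, except after removal of the GC trend, where MS41 gave -0.20 at 24 h (adjusted p = 1.7e-05) and -0.18 at 6 h (adjusted p = 0.000104). At 24 h it had 198, 196 and 202 CPM with MS41, 229, 227 and 220.2 CPM with PFI-6, 225, 221 and 213 CPM with MS41N, and 208, 204 and 209 CPM with DMSO. MS41 libraries were lowest, DMSO libraries came next, and PFI-6 and MS41N libraries were highest and overlapped. MGA was lower with MS41 than with PFI-6, by -0.18 at 24 h (adjusted p = 0.00419) and -0.22 at 6 h (adjusted p = 0.0022). Against DMSO the values were -0.06 with MS41 (adjusted p = 0.372) and 0.12 with PFI-6 (adjusted p = 0.114) at 24 h.

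**Figure D2:**
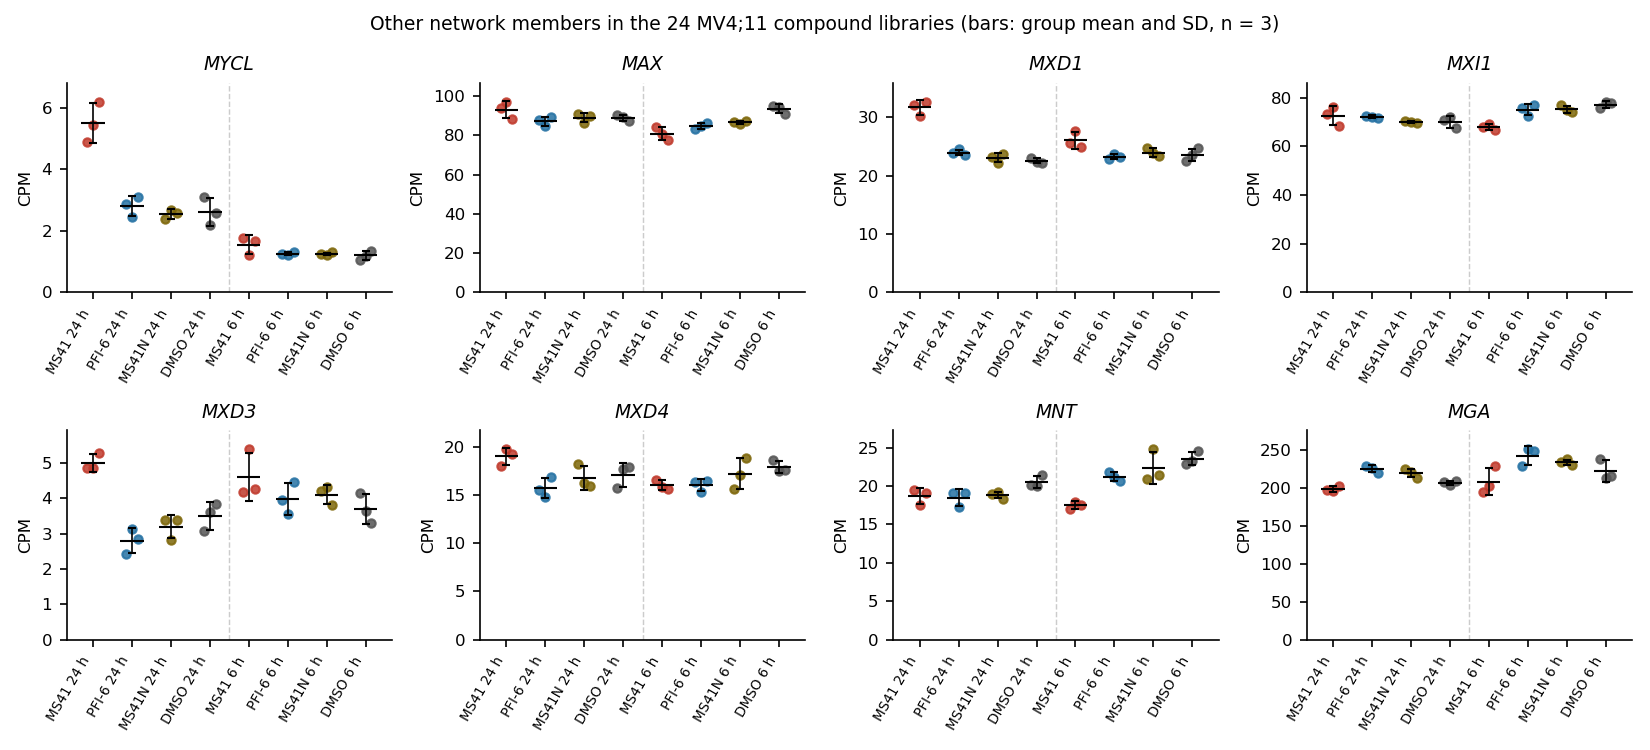
Level in CPM (y axes) of the 8 tested members other than MYC in the 24 MV4;11 compound libraries, by compound and time (x axes), with 1 point per library and bars for the mean and SD of 3 libraries. MYCL, MXD1 and MXD3 stand above the other compounds with MS41 at 24 h, at 4.91 to 6.19, 30.3 to 32.6 and 4.85 to 5.29 CPM, and MNT lies lowest with MS41 at 6 h, at 17.0 to 18.0 CPM.

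Against the other compounds, 6 members were called for MS41 over MS41N at 24 h (42.4% of all genes) and 5 at 6 h (21.8%). MYCL was higher by 1.12 (adjusted p = 1.23e-09), MXD1 by 0.46 (adjusted p = 8.9e-12), MXD3 by 0.64 (adjusted p = 7.17e-06) and MXD4 by 0.18 (adjusted p = 0.0195) at 24 h. MGA was lower by -0.15 (adjusted p = 0.0194), and the MXD4 and MGA calls were each lost when single libraries were left out. At 6 h MNT was lower by -0.35 (adjusted p = 1.83e-06) and MXI1 by -0.15 (adjusted p = 0.000572). MAX (-0.10) and MGA (-0.17), both at an adjusted p of 0.0162, were called in addition but lost when single libraries were left out.

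Against PFI-6, 7 members were called for MS41 at 24 h (42.3% of all genes) and 5 at 6 h (19.5%). MYCL was higher by 0.98 (adjusted p = 2.82e-08), MXD1 by 0.40 (adjusted p = 2.71e-10), MXD4 by 0.27 (adjusted p = 0.000299) and MAX by 0.09 (adjusted p = 0.0153, but -0.058 after removal of the GC trend) at 24 h. At 6 h MNT was lower by -0.28 (adjusted p = 0.000148) and MXI1 by -0.14 (adjusted p = 0.000793), and MXD1 was higher by 0.16 (adjusted p = 0.00661). The MAX call at 24 h was lost when single libraries were left out, and the MXD1 call at 6 h was lost without MS41 replicate 2.

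PFI-6 against DMSO gave 1 called member at 24 h, MYC (12.4% of all genes), and 2 at 6 h, MYC and MAX (2.05%). MS41N against DMSO gave 0 at 24 h (0.0352% of all genes) and 0 at 6 h (0.321%), with edgeR and with DESeq2, and 2 members at each time at an unadjusted p under 0.05. PFI-6 against MS41N gave 0 at 24 h (0.106%) and 0 at 6 h (0.0132%) with both tools, and MYC alone had an unadjusted p under 0.05 at either time. Time in culture with DMSO alone gave 4 called members (30.2% of all genes): MYC and MYCL higher at 24 h, and MXI1 and MNT lower, MNT by -0.20 (adjusted p = 0.00345).

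**Figure D3:**
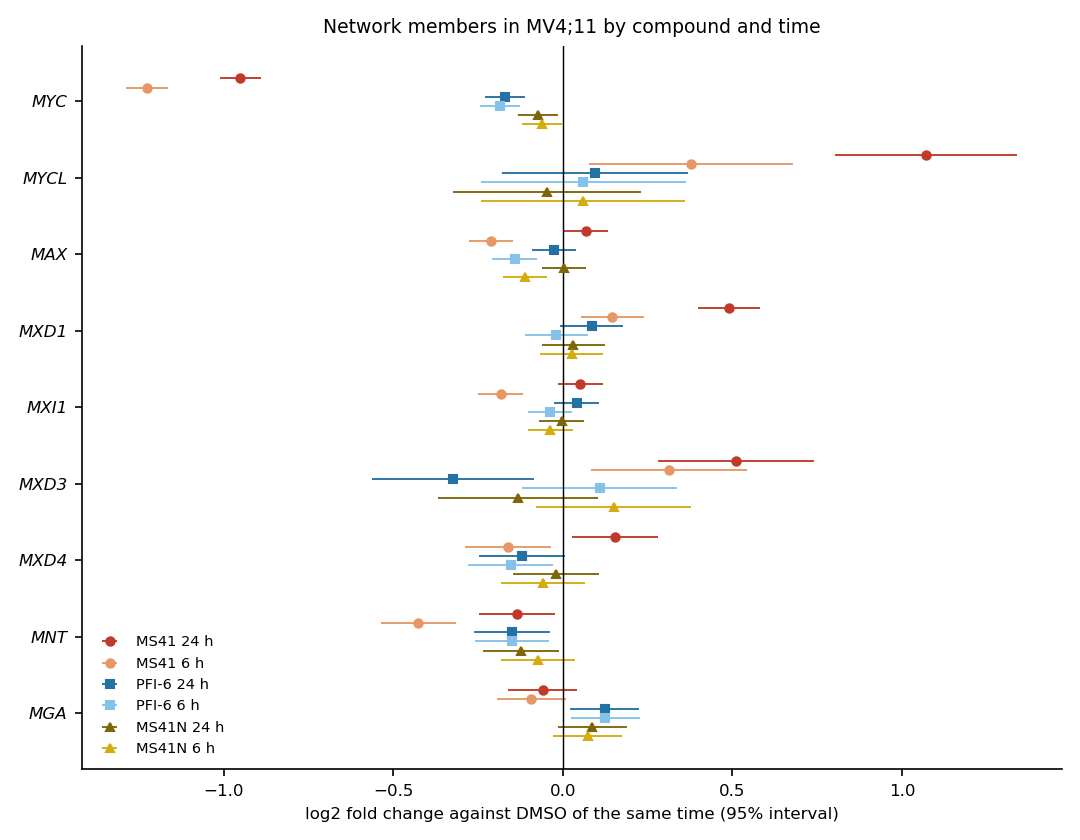
Log2 fold change (x axis, with its 95% interval) of each tested member (y axis) for MS41, PFI-6 and MS41N against DMSO of the same time in MV4;11, from 3 libraries per group. MYC lies at -0.95 and -1.23 with MS41 and between -0.18 and -0.06 with PFI-6 and MS41N, while MYCL, MXD1 and MXD3 lie at 1.07, 0.49 and 0.51 with MS41 at 24 h.

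In the other tables no member was called. In SEMK2 the count was 0 of 9 (1.36% of all genes), with 3 members (MYC, MYCL and MXD1) at an unadjusted p under 0.05 and 0 with DESeq2. Without DMSO replicate 3, MYC (-0.21) and MXD4 (-0.25, adjusted p = 0.0264) were called, but the share of all genes called in that fit is not given here. Both ENL guides together gave 0 of 9 (10.3% of all genes), with 3 members (MYC, MXD3 and MXD4) at an unadjusted p under 0.05 and 1 with DESeq2, MYC. Guide 2 alone (4.94%) and guide 1 alone (7.48%) also gave 0 with edgeR and with DESeq2, with 1 and 3 members at an unadjusted p under 0.05. Guide 2 against guide 1 gave 0 (0% of all genes), also with DESeq2 and at an unadjusted p under 0.05. In the mouse libraries the count was 0 (0.0328% of all genes, 7 genes), with MYC alone at an unadjusted p under 0.05 and 0 with DESeq2.

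The makeup of the network was set out per kilobase of exon, to compare levels of different genes. The length was that of all annotated exons of a gene, so a gene expressed mainly as a shorter transcript would be understated. MYC made up 52.1%, 52.5% and 52.0% of the summed CPM per kilobase of the 10 genes with MS41 at 24 h, against 69.2%, 68.7% and 69.3% with DMSO. At 6 h it made up 49.0%, 47.9% and 45.9% with MS41, against a mean of 65.7% ± 0.422 with DMSO (SD, n = 3). The MS41 libraries lay below all the other compound libraries. PFI-6 gave 66.3% ± 0.161 at 24 h and 63.4% ± 1.02 at 6 h, and MS41N gave 67.9% ± 0.114 and 65.2% ± 0.417. These shares hold the MYC values already tested and were given no test of their own.

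The summed share of the MAX partners other than the MYC family (MXD1, MXD3, MXD4, MXI1, MNT and MGA) was 31.6% with MS41 and 20.6% with DMSO at 24 h, and 36.0% with MS41 and 23.2% with DMSO at 6 h. Their own sum per kilobase differed less between the groups. It was 46.7, 46.9 and 46.2 CPM with MS41 and 44.2, 44.7 and 44.2 CPM with DMSO at 24 h, slightly higher with MS41, and 42.9, 44.5 and 44.7 CPM with MS41 and 48.8, 47.6 and 48.0 CPM with DMSO at 6 h, lower with MS41. MYC per kilobase was 74.7 to 79.2 CPM with MS41 and 147 to 150.3 CPM with DMSO at 24 h, and 54.2 to 61.4 CPM with MS41 and 135 to 138 CPM with DMSO at 6 h, so the larger share goes with the lower MYC level. The ratio of MYC to MAX per length was 3.39 with MS41 and 6.86 with DMSO at 24 h, and 2.95 with MS41 and 5.97 with DMSO at 6 h. MYC transcripts exceeded MAX transcripts per length in every compound group.

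The mouse libraries had another makeup. MYC made up 13.8% ± 2.19 with MS41 and 20.5% ± 2.95 with vehicle, and the other MAX partners made up 68.6% with MS41 and 63.2% with vehicle. The sum of these partners per kilobase overlapped between the groups, at 63.4 to 65.7 CPM with MS41 and 64.0 to 65.9 CPM with vehicle, while MYC per kilobase was 10.7 to 15.2 CPM with MS41 and 17.6 to 25.1 CPM with vehicle. The ratio of MYC to MAX per length was 0.835 with MS41 and 1.33 with vehicle. With the guides MYC made up 68.8% ± 2.04 (guide 2), 68.3% ± 0.387 (guide 1) and 73.0% ± 1.8 (control), and in SEMK2 64.1% ± 0.598 with MS41 and 66.5% ± 1.41 with DMSO. MXD1 per kilobase was 16.6 CPM with MS41 and 15.5 CPM with vehicle in the mouse libraries, against 5.64 CPM with MS41 and 4.02 CPM with DMSO in culture at 24 h. Host, kit and scaling differ between those tables and cannot be told apart.

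**Figure D4:**
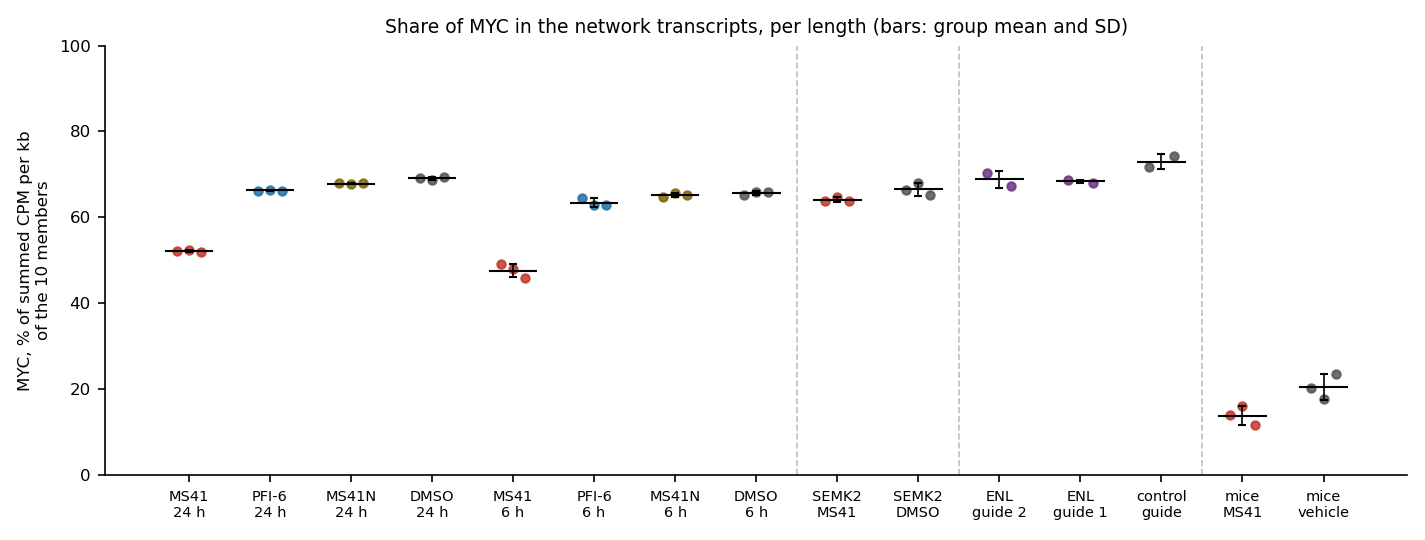
MYC as a percentage of the summed CPM per kilobase of the 10 network genes (y axis) in each library, by group (x axis), with bars for the group mean and SD. MYC makes up 52.2% and 47.6% on average with MS41 in MV4;11 at 24 h and 6 h, 63.4% to 69.1% in the other compound groups, and 13.8% to 20.5% in the mouse groups.

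Genes around the network were read from lists that hold its known partners, regulators and targets. The main list holds 57 MYC targets, many of them ribosome assembly factors, with MYC left out. Of these, 53 fell and 2 rose with MS41 at 24 h, with a median log2 fold change of -0.57 against 0.02 over all genes tested, of which 22.9% were lower. At 6 h 49 fell and 6 rose, with a median of -0.27 against 0.02, where 13.8% of all genes were lower. The difference between MS41 and DMSO moved downward between the times for 48 of 57 and upward for 0. Over all genes it changed in either direction for 26.4% and upward for 11.9%. At 24 h 5.86% to 7.04% of counts lay on mitochondrial genes with MS41 and 5.2% to 5.41% with DMSO. The 8 myeloid markers summed to 3417 to 3603 CPM with MS41 and 2478 to 2514 CPM with DMSO at 24 h. LYZ alone averaged 2642 CPM with MS41 and 1464 CPM with DMSO at 24 h. Without LYZ, the other markers together were lower with MS41 at 24 h. At 6 h the 8 markers summed to 1212 to 1228 CPM with MS41 and 1452 to 1466 CPM with DMSO. The 6 T and NK markers summed to 13.4 to 14.5 CPM with MS41 and 6.15 to 7.16 CPM with DMSO at 24 h, mostly NKG7 at 13.6 and 6.40 CPM, and CD3D, CD3E and CD3G were at 0 in the DMSO libraries. The part of any of these in the result was not tested.

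The MYC targets with the largest falls at 24 h were IPO4, an importin, HSPE1, a mitochondrial chaperonin, MYBBP1A, a nucleolar protein, and SRM, the spermidine synthase. IPO4 averaged 0.648 ± 0.0622 CPM with MS41 and 1.5 ± 0.0627 CPM with DMSO (log2 fold change -1.21, adjusted p = 2.91e-08). HSPE1 averaged 50.3 ± 2.19 CPM with MS41 and 102 ± 2.64 CPM with DMSO (SD, n = 3 each; -1.02, adjusted p = 8.95e-28). MYBBP1A fell by 0.89 and SRM fell by 0.85, and none of these 4 genes had overlapping groups.

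At 6 h the largest falls were those of DUSP2, a MAP kinase phosphatase (-0.61, adjusted p = 3.55e-05), NOP16, a nucleolar protein (-0.57, adjusted p = 1.78e-19), and IPO4 (-0.53, adjusted p = 0.0085). SLC29A2, a nucleoside transporter, had the largest change of the list at 6 h and rose by 1.12 (adjusted p = 0.0456) at a very low level, 0.283 CPM with MS41 and 0.13 CPM with DMSO. Chosen after their values were seen, the 2 targets that rose at 24 h were the kinase genes MAP3K6 (0.38) and PLK4 (0.10). Both also rose at 6 h (0.45 and 0.26), as did the replication helicase genes MCM4 (0.10) and MCM5 (0.25) and the DNA repair gene UNG (0.16).

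With PFI-6, 20 MYC targets fell and 0 rose at 24 h (median -0.07, where 6.78% of all genes were lower). The number fallen was between 13 and 20 when single libraries were left out and between 2 and 24 under other settings, the fewest after removal of the GC trend. At 6 h 5 fell (1.39% of all genes), or 1 to 3 when single libraries were left out. With MS41N 0 were called at 24 h with edgeR, 1 with DESeq2 and 15 at an unadjusted p under 0.05, and 1 fell at 6 h, PHB.

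Both ENL guides lowered 30 of the 57 MYC targets and raised 0 (median -0.24, where 4.98% of all genes were lower). The number depended on single libraries. It was 3 without control replicate 2, 9 without guide 2 replicate 2, 16 without guide 1 replicate 1, 18 without guide 2 replicate 1, and at most 45, and with a replicate block it was 46. Summed over the 8 myeloid markers, the level was 3314 to 3443 CPM with guide 2, 3486 to 3627 CPM with guide 1 and 2517 to 2689 CPM with the control guide. LYZ was the highest of them with guide 2 (1328 CPM) and guide 1 (1509 CPM). With the control guide the highest was AZU1, at 750.2 CPM. Mitochondrial genes held 3.82% to 4.66% of counts with the ENL guides and 3.19% to 3.58% with the control guide. The 6 T and NK markers summed to 46.4 to 56.4 CPM with guide 2, 55.1 to 57.4 CPM with guide 1 and 34.8 to 37.5 CPM with the control guide, with NKG7 alone of them at 1 CPM or more (51.3, 56.1 and 36.1 CPM), and CD3D and CD3G were at 0 in all 3 groups. ITGA2B, a megakaryocyte marker, averaged 22.8 CPM with guide 2, 27.3 CPM with guide 1 and 13.1 CPM with the control guide, with HBB, HBA1 and PF4 at 0. The part of any of these in the result was not tested.

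In SEMK2 0 of 57 MYC targets were called with edgeR, 3 with DESeq2 and 22 at an unadjusted p under 0.05, with a median of -0.08. Without DMSO replicate 3, 26 were lower and 1 was higher. That library stood apart from the other DMSO libraries (chi-square per gene 50.7 and 56.4, against 11.1 between those). The share of all genes called without it is not given here, so the 26 are not read as a result about MYC targets. In the mouse libraries 0 were called, 3 had an unadjusted p under 0.05, and the median was -0.03.

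**Figure D5:**
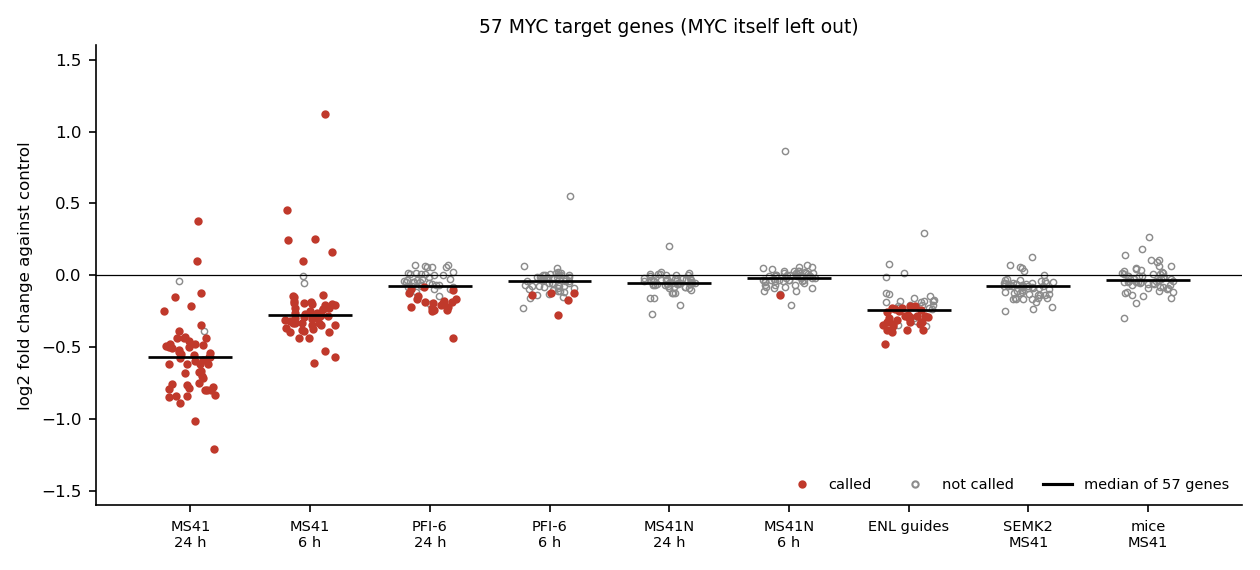
Log2 fold change (y axis) of the 57 MYC target genes in each comparison with its own control (x axis), with filled points for called genes, open points for the rest and a line at the median. With MS41 in MV4;11 the medians are -0.57 at 24 h and -0.27 at 6 h, with both ENL guides -0.24, and the other medians lie between -0.08 and -0.02.

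A second list holds 20 MYC targets in growth metabolism. Of these, 18 fell and 0 rose with MS41 at 24 h (median -0.48, where 22.9% of all genes were lower), and 15 fell and 2 rose at 6 h (median -0.21, where 13.8% were lower). SLC7A5, which carries large neutral amino acids, fell by 0.93 at 24 h, to 108 ± 5.29 CPM with MS41, against 206 ± 5.02 CPM with DMSO (adjusted p = 2.02e-27). TFRC, the transferrin receptor, fell by 0.84, CAD, which starts pyrimidine synthesis, fell by 0.82, and ODC1, which starts polyamine synthesis, fell by 0.81. At 6 h TFRC and ODC1 were lower as well, by -0.38 and -0.37, with SLC7A5 at -0.33 and EIF4A1, a translation initiation helicase, at -0.33. The 2 genes that rose at 6 h were the folate enzymes SHMT1 (0.18) and MTHFD2 (0.08), named after their values were seen.

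Both ENL guides lowered 11 of these 20 genes, where 4.98% of all genes were lower, or 4 to 13 when single libraries were left out. SLC7A5 fell by 0.87 with the guides (adjusted p = 1.23e-05). In SEMK2 1 of the 20 was called, the glutamine carrier SLC1A5 (-0.22, adjusted p = 0.0372).

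The list of 8 genes that MYC represses went mostly the other way. With MS41, 6 rose and 1 fell at 24 h (median 0.58, where 21.4% of all genes were higher), and 5 rose and 1 fell at 6 h (median 0.18, where 12.2% were higher). After removal of the GC trend 5 rose at 24 h (median 0.48) and 3 at 6 h (median 0.11). CDKN1C, an inhibitor of cell cycle kinases, rose by 1.89 at 24 h (adjusted p = 8.22e-09) at a low level, 1.5 ± 0.288 CPM with MS41 and 0.402 ± 0.0780 CPM with DMSO. NDRG2 rose by 1.3 and NDRG1, a stress and differentiation gene, rose by 1.20, to 74.9 ± 1.74 CPM with MS41, against 32.6 ± 1.3 CPM with DMSO. With both ENL guides 3 rose, NDRG2 (0.91), CDKN1A (0.51) and GADD45A (0.43), and 1 fell, where 10.3% of all genes were called.

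The gene that fell each time was CDKN1B, which codes for the cell cycle inhibitor p27. It fell by 0.93 at 24 h (61.6 ± 3.05 CPM with MS41 and 117 ± 2.43 CPM with DMSO, adjusted p = 5.91e-28) and fell by 1.25 at 6 h (adjusted p = 7.68e-32). It also fell by 0.56 with both ENL guides (adjusted p = 0.000306) and fell by 0.44 in SEMK2 (adjusted p = 2.13e-05).

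CDKN1B was also among the 5 genes whose pattern was nearest to that of MYC. Nearness was the root mean square difference of log2 fold changes over 8 comparisons (3 compounds at 2 times, SEMK2 and the guides), among 9111 other genes, whose median was 0.547. The nearest were NKAPP1 (0.164), ABHD15 (0.165), CDKN1B (0.172), CXorf21 (0.177) and PLD6 (0.188). With MS41 these 5 genes ranged from -1.15 (ABHD15) to -0.86 (CXorf21) at 24 h and from -1.25 (CDKN1B) to -0.86 (NKAPP1 and PLD6) at 6 h. These values are among those that picked the genes, so they add nothing to the choice. In SEMK2 the 5 genes ranged from -0.44 (CDKN1B) to 0.21 (CXorf21), and CXorf21 lay the other way from MYC there.

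The E-box CACGTG, which reads the same on both strands, was searched in windows of 250 bases before to 50 bases after the start of each gene, taken from RefSeq (GRCh38.p14). The motif was present for 2396 of 27305 genes with a window (8.77%), and some genes have several windows. Of the 57 MYC targets 46 had a window, and 25 of these (54.3%) held the motif. Among the network genes 9 had a window, and MXD4 and MNT held the motif. MYC itself had no window and was not searched. These windows are shown because they belong to the members with the motif and to 3 MYC targets with large falls after MS41, with up to 60 bases on each side of the motif and the motif in capitals.
MXD4, chr4:2262282-2262359, minus strand: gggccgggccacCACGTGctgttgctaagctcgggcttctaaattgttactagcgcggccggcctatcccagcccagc
MNT, chr17:2401188-2401310, minus strand: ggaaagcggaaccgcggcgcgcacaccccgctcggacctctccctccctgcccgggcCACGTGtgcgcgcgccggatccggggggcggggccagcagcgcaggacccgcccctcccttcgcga
IPO4, chr14:24188817-24188905, minus strand: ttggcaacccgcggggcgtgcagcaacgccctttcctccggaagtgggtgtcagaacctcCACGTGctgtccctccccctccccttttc
HSPE1, chr2:197500297-197500378, plus strand: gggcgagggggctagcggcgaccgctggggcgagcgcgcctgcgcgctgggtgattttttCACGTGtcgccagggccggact
SRM, chr1:11060152-11060268, minus strand: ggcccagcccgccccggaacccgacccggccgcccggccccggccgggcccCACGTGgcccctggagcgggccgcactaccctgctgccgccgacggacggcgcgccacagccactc
A match describes the letters of a window and is not a bound site.

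With MS41 at 24 h, the 25 MYC targets with the motif all fell, with a median of -0.70, and of the 21 without it 19 fell and 2 rose, with a median of -0.57. At 6 h the medians were -0.27 with the motif and -0.28 without it. With both ENL guides 15 of 25 fell with the motif and 9 of 21 without it, at medians of -0.29 and -0.23. These splits were not tested.

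Transcripts of proteins that work with the members were called in both directions. Of 10 co-activators of MYC, 6 fell and 1 rose with MS41 at 24 h, and 5 fell and 1 rose at 6 h. Over all genes 22.9% were lower and 21.4% higher at 24 h, and 13.8% lower and 12.2% higher at 6 h. KAT2A, the histone acetyltransferase of the SAGA complex that MYC recruits, fell by 0.78 at 24 h. RUVBL1 and RUVBL2, the paired ATPases of chromatin remodellers, fell by 0.77 and 0.75, and WDR5, which helps MYC bind chromatin, fell by 0.45. BPTF, a subunit of the NURF remodeller, was the 1 that rose, by 0.14 at 24 h and 0.09 at 6 h.

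Of 8 co-repressors used by MXD proteins and MNT, 4 fell and 1 rose with MS41 at 24 h, and 3 fell at 6 h, against 44.3% of all genes called at 24 h and 26% at 6 h, so neither count stands far from that share. Their changes were small, with HDAC2, a histone deacetylase, at -0.22, RBBP4 at -0.16, SIN3A, the scaffold, at -0.09 and SAP30 at 0.20 at 24 h. Of 9 further PRC1.6 genes, the complex of MGA, 6 fell and 1 rose at 24 h, where 22.9% of all genes were lower, and 3 fell at 6 h, where 13.8% were. TFDP1, the E2F partner, fell by 0.50, L3MBTL2 fell by 0.45 and E2F6 fell by 0.33 at 24 h, while RYBP rose by 0.23. CBX3 fell by 0.44 and is counted in the list of MYC targets too.

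Of 12 genes for MYC protein stability and partners, 5 fell and 2 rose with MS41 at 24 h, and 1 fell and 2 rose at 6 h. With 44.3% of all genes called at 24 h and 26% at 6 h, both counts lie near the share over all genes. USP36, a nucleolar enzyme that removes ubiquitin from MYC, fell by 0.51 at 24 h and fell by 0.37 at 6 h. SKP2, a ubiquitin ligase subunit for MYC and p27, fell by 0.50 at 24 h. BIN1, which binds MYC and restrains it, rose by 0.96 (adjusted p = 0.00221) at 0.919 CPM with MS41 and 0.472 CPM with DMSO. At 6 h USP28 and CIP2A each rose by 0.17.

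The parallel branch of the network uses MLX in place of MAX, and 5 of its genes were read. With MS41 3 rose and 1 fell at 24 h (44.3% of all genes called), and 1 rose and 1 fell at 6 h (26%). The genes are too few for these counts to be read against those shares. TXNIP, a target of the MLX partners that limits glucose uptake, rose by 1.11 at 24 h, to 277 ± 14.5 CPM with MS41, against 129 ± 4.86 CPM with DMSO (adjusted p = 5.66e-24). ARRDC4, its relative, rose by 0.48, MLXIP rose by 0.21 and MLX fell by 0.17. Both ENL guides raised the same 3 genes by name, TXNIP (0.68), ARRDC4 (0.62) and MLXIP (0.27), and lowered 0 of the 5, where 10.3% of all genes were called. These 3 genes were not called with MS41 in SEMK2 (TXNIP -0.018, ARRDC4 -0.14, MLXIP -0.0003). They were not called in the mouse libraries either (TXNIP -0.054, ARRDC4 0.20, MLXIP -0.088).

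Next to MYC on chromosome 8, 2 long non-coding transcripts passed the filter. PVT1 fell by 0.30 at 24 h (adjusted p = 0.000108) and fell by 0.22 at 6 h (adjusted p = 0.00626) with MS41. CASC11 fell by 1.96 at 6 h (adjusted p = 0.0486) at a very low level, 0.0379 CPM with MS41 and 0.155 CPM with DMSO, and was not called at 24 h.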

How the data were processed

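Per the submitters' processing notes, the authors used HISAT2 2.1.0, HTSeq 0.11.3 and CASAVA 1.8 with build hg38. Their settings, and whether counting used strand, are not given in the sources used here. The deposited values for the cultured cells are whole-number counts per gene. The deposited mouse values are handled like expected counts, since the values appear adjusted by replicate number, a step not given in the sources used here: the median SD of the mean log2 CPM of same-numbered pairs was 0.000725, against 0.0285 to 0.0470 for the 5 other matchings. Their fit therefore has a replicate term, although deviations there correlate negatively.

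All 58721 identifiers matched GENCODE 29. Each of the 4 tables was fitted in edgeR 4.0.16 (R 4.3.3; robust quasi-likelihood, TMM, filterByExpr) with Benjamini-Hochberg adjustment over 22711 (MV4;11 compounds, 1 fit of 24 libraries), 21433 (SEMK2), 17984 (guides) or 21337 (mice) genes. The biological coefficient of variation was 4.77%, 11.0%, 9.21% and 13.0%, with 16, 4, 3 and 2 residual degrees of freedom. No 2 replicates were copies (chi-square per gene 4.13 to 56.4). Same-numbered libraries were not paired in the main fits of the cultured tables: in no comparison with 3 or more pairs did every correlation pass 0.1. The guide comparisons have 2 pairs per pair of guides, too few for that rule. There the correlation was 0.672 for guide 1 against the control and 0.246 for guide 2 against guide 1. For guide 2 against the control it was 0.00894. Some pairing in the guide table is therefore possible, and fits with a replicate block are given as an alternative. Scripts were tested on simulated data, and figures used matplotlib 3.10.9.

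All 10 network genes are named, along with the 4 called genes of largest change at each time for each further list and the 5 genes nearest to MYC. The members and lists were chosen with earlier results of these data known. Alternatives were RLE size factors, no filter, DESeq2 1.42.0, a replicate block, removal of a GC trend, separate fits and leaving out each library. The same counts for the lists were added after seeing the data. Levels at 0 are limited by 3 counts, which covers counting error only.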

Additional observations from a re-analysis of the deposited data

Results flagged for a closer look

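The difference between MS41 and DMSO in MV4;11 changed from 6 to 24 h for 7 of the 9 tested members, by the interaction test of edgeR. The change was 0.27 for MYC, 0.69 for MYCL, 0.28 for MAX, 0.34 for MXD1, 0.32 for MXD4, 0.23 for MXI1 and 0.29 for MNT, on the log2 scale. All 7 were upward relative to DMSO of the same time, which alone does not show a higher level at 24 h. In DMSO itself MXI1 and MNT were lower at 24 h than at 6 h, and MYC and MYCL were higher.

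MYCL lay in opposite directions in 2 comparisons with the same compound. All 3 MS41 libraries were above all 3 DMSO libraries in MV4;11 at 24 h (log2 fold change 1.07), and all 3 were below them in SEMK2 (-0.27). The SEMK2 time is not stated, and the difference between the lines was not tested.

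MXD4 likewise lay above DMSO in every MV4;11 library with MS41 at 24 h (0.15) and below vehicle in every mouse library with MS41 (-0.087, not called). The difference between these comparisons was not tested either. By replicate number, the mouse log2 ratios of MS41 to vehicle were -0.179, -0.0742 and -0.00858. Same-numbered mouse pairs have nearly equal means in the deposited values. The mouse groups therefore separate whenever all pairs share a sign, and their separation adds nothing to the signs.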

How the results depend on the processing

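Alternatives for the members gave 1270 values of the same direction and side of the threshold, 35 newly called, 12 no longer called and 6 of opposite sign, the last all after removal of the GC trend: MXI1 with MS41 at 24 h (-0.091 alone and -0.092 with a replicate block), MAX with MS41 against PFI-6 at 24 h (-0.058 and -0.059), and MXI1 in that comparison (-0.10 and -0.11). That trend removal moved the median of all genes from 0.02 to -0.09 at 24 h and from 0.02 to -0.06 at 6 h for MS41, so log2 fold changes shift with it. The share of called genes that were higher went to 32.9% (48.4% before) for MS41 at 24 h, 24.8% (46.9%) at 6 h, 7.24% (32.2%) for PFI-6 at 6 h, 33.9% (61.9%) in SEMK2 and 37.0% (51.6%) with the guides. The number of genes called for PFI-6 at 24 h went from 2806 to 207. Leaving out single libraries gave 1246 values of the same direction and side, 20 newly called and 30 no longer called.

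The count of members called for PFI-6 at 24 h was 1, and it was 2 without the filter and with DESeq2, 0 after GC trend removal with or without a replicate block, 3 in a fit of its own groups, and 1 to 2 when single libraries were left out. At 6 h single omissions gave 1 to 2. PFI-6 against MS41N gave 1 at 6 h without the filter and 1 at 24 h in a fit of its own groups. Single omissions gave 0 to 2 in SEMK2 and 0 to 1 for guide 2 (MXI1, 0.33, without control replicate 1). Both ENL guides gave 1 (MYC) without the filter, with DESeq2, with a replicate block, after GC trend removal and with both, and guide 1 gave 1 without the filter and with the block, alone or with GC trend removal. In the mouse libraries the fit with no replicate block gave 0, as did the fit with it. Low expression limits the precision for MYCN, CASC11, IPO4, SLC29A2, CDKN1C and BIN1, and the 2 libraries per guide limit the guide comparison.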
